A study of Mus musculus with 19 samples.

Results

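Lymphatic endothelial cells were taken from single-cell RNA sequencing of the mouse Achilles tenotomy site. A cell was kept as a member when it had at least 500 genes, at most 25% mitochondrial UMIs (unique molecular identifiers, each marking 1 captured transcript), at least 1 UMI of the endothelial adhesion gene Pecam1, and UMIs of at least 3 of the 6 lymphatic genes Prox1, Mmrn1, Reln, Flt4, Lyve1 and Pdpn, including Prox1 or Mmrn1. It could hold at most 1 UMI of the leukocyte gene Ptprc and at most 1 of the stromal gene Pdgfra. This gate found 273 lymphatic endothelial cells among 39541 cells that passed the quality filter, in all 19 libraries and 5 groups. The members were thus chosen by the measured UMIs of the 9 genes of the gate, whose values are given as a description and were not tested.

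All libraries came from the tenotomy site in a model of heterotopic ossification, the formation of bone in soft tissue, in which a scald burn over 30% of the body surface on the back is combined with a cut through the Achilles tendon. Tissue was collected at day 0 (n = 4 libraries), day 3 (n = 3), day 7 (n = 4) and day 21 (n = 4). The 4 libraries of the group p7N3 came from mice given a CD47-activating peptide at 10 mg/kg intraperitoneally every day, from 3 days before to 3 days after injury. The labels of its replicates 1 to 3 state harvest at day 7. The labels name C57 and LysmCre/Tgfb1fx/fx mice for every group. In the second genotype Cre is driven by the lysozyme M promoter and removes floxed Tgfb1 from myeloid cells. No label says which library came from which genotype, so genotype and group cannot be told apart. The day 0 labels also describe the burn, although the study treats that day as the state before injury. The label of p7N3 replicate 4 gives no harvest day, and none names the vehicle of the day 7 mice. The study's methods state young adult male C57BL/6J mice for work on wild-type animals. The study describes its single-cell replicates as a measure of variation between mice. The labels do not say whether a library held 1 animal or several, so p-values measure the spread between libraries.

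Lymphatic endothelial cells line the vessels that drain fluid, lipids and leukocytes from tissue. The transcription factor Prox1 sets and keeps their identity, the receptor Flt4 (VEGFR-3) takes up the growth signals of Vegfc and Figf (the gene of VEGF-D), and Lyve1 binds hyaluronan on the initial lymphatic vessels. These cells guide dendritic cells and lymphocytes into the vessel by laying down the chemokine Ccl21, and valves built under the control of Foxc2 and Gata2 keep the flow directed.

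The number of members per library was small. It was 1, 6, 8 and 10 cells at day 0, 2, 3 and 5 at day 3, 23, 35, 32 and 13 at day 7, 18, 10, 14 and 18 at day 21, and 19, 20, 18 and 18 in p7N3. Cells were never used as replicates. UMIs were summed over the members of each library, and the 16 libraries with at least 5 members entered the tests, with 52306 to 706869 UMIs per sum. This left 3 sums at day 0, 1 at day 3 and 4 in each of the other groups, so no gene was compared between day 3 and another group. The median member held 6428 UMIs at day 0, 23264.5 at day 3, 12393 at day 7, 11542.5 at day 21 and 9521 in p7N3. Values below are CPM, UMIs of a gene per 1000000 UMIs of the sum, after TMM scaling, except where raw CPM is stated, and adjusted p-values are from edgeR's quasi-likelihood test with Benjamini-Hochberg adjustment over all genes tested.

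The label was checked against markers that the gate did not use. Ccl21a was seen in 85.0% of the 273 members (median 11750.0 UMIs) and in 5.80% of blood endothelial cells (median 6716.0 UMIs), in 5.54% of cells with at least 2 Ptprc UMIs (7428.5) and in 11.7% of cells with at least 2 Pdgfra UMIs (16262.0). The endothelial cadherin Cdh5 was in 95.2%, the transcription factors Nr2f2 and Sox18 in 84.2% and 86.8%, and the Vegfc co-receptor Nrp2 in 81.0%. Blood endothelial cells also held the last 3, in 37.5%, 81.4% and 53.1%. Most members lay well inside the gate, with 157 holding all 6 lymphatic genes, 64 holding 5, 28 holding 4 and 24 holding 3. The macrophage and monocyte gene Lyz2 was seen in 74.5%, 65.6%, 53.6% and 54.2% of these, in that order, and its source was not tested. The 24 cells at the edge were the shallowest, with a median of 5503 UMIs, and 37.5% of them held Ccl21a against 93.0% of those with all 6 genes. Just outside, 36 cells met every other condition with 2 of the 6 genes, and 19.4% of these held Ccl21a and 50% held Cdh5. A further 21 cells had the lymphatic genes and no Pecam1 UMI, 6 had at least 2 Ptprc UMIs and 4 had at least 2 Pdgfra UMIs. The gate gene Lyve1 was least often seen at day 0, where it was found in 36.0% of the 25 members there and in 80% to 100% of members in the other groups.

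Shared barcodes and doublets were checked. Libraries shared at most 22 barcodes, in 2 pairs where 14.4 and 12.6 were expected by chance. Of the members, 25 lay among the 3.9% of cells with the highest Scrublet doublet scores of their library. A library stood apart before any comparison: the day 3 sum of 5 cells (replicate 3) held 58843 raw CPM of 7 listed erythrocyte genes, led by Hbb-bs, against 389 and 1063 in the members of the other day 3 libraries and a mean of 706 at day 0. The 8 neutrophil genes were high in all 3 day 3 libraries, at 1522, 1325 and 2397 raw CPM against a mean of 6.37 at day 0. So were the 15 macrophage and monocyte genes, led by Lyz2, at 2395, 13320 and 2232 raw CPM against 147, with replicate 2 far above the others and also at 3051 raw CPM of Pf4. These cells make up the day 3 share given below, and the part of leukocyte RNA in it was not tested. Replicate 3 entered the comparison with blood endothelial cells below, which called 2671 genes without it and 2469 with it. The file of day 0 replicate 1 lists every barcode of the kit, and only those passing the filter were read. That library gave 1 member and is in no sum.

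Among genes outside the gate, the transcript that set these cells apart most from blood endothelial cells was the chemokine Ccl21a. It lies at chr4:42772860-42773993 on the minus strand of GRCm38 (GENCODE vM21, gene ENSMUSG00000094686). The mouse genome holds near-identical copies of this gene, and a 3' UMI can fall to several of them. The coding sequence has 402 bases, and Ccl21b, Gm13304, Gm21541 and Gm10591 each differ from it at 2 of them (T84A and C194T, Ccl21a base first, counted from 1 at the A of the start codon; 99.5% identity). The stretches of 29 coding bases around both positions are shown because they are the letters by which reads over the coding part can be assigned, with the differing base in capitals.
Ccl21a, bases 70 to 98: agtgatggagggggTcaggactgctgcct
Other copies, bases 70 to 98: agtgatggagggggAcaggactgctgcct
Ccl21a, bases 180 to 208: ggcaatcctgttctCaccccggaagcact
Other copies, bases 180 to 208: ggcaatcctgttctTaccccggaagcact
In the members, 80905 UMIs (99.6% of those of all listed copies) were assigned to Ccl21a and 311 to the other copies, of which 182 fell to Gm21541 and 108 to the gene listed as Ccl21b with the identifier ENSMUSG00000096271. How the counting split reads between copies is not given in the sources used here, so the Ccl21a values stand for the family.

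Ccl21a was found in libraries of every stage. It held 6776, 11579 and 35723 CPM in the day 0 sums of replicates 2 to 4, 26718, 16302, 18274 and 49712 at day 7, 21563, 34917, 18523 and 20904 at day 21 and 23986, 23893, 8295 and 14968 in p7N3. These 4 groups overlapped. At day 3 the members of the 3 libraries held 5097, 4376 and 3805 raw CPM, below the 7169 raw CPM of the lowest of those sums, while the 1 member of day 0 replicate 1 held none. Day 3 was not tested. No comparison among the other groups shown here was called, with log2 fold changes of 0.62 ± 0.43 (adjusted p = 0.330) for day 7 against day 0 and -0.64 ± 0.39 (adjusted p = 1) for p7N3 against day 7. Without day 0 replicate 4, the highest day 0 sum, the change at day 7 was 1.58 and called (adjusted p = 0.0180), and without the members of the highest doublet scores it was -0.21. That last setting also left day 0 replicate 2, the lowest day 0 sum for Ccl21a, with 4 members and day 3 replicate 3 with 3. Both are under the minimum of 5, so these sums were not in the fit. The part of each step was not tested.

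The growth factors that feed this cell type were barely found in the cells themselves. Over all libraries the members gave 2 UMIs of Vegfc (0.469 raw CPM, under the 0.703 CPM that 3 UMIs make) and 12 of Figf (2.81 raw CPM). Cells with at least 2 Pdgfra UMIs held 54.4 raw CPM of Figf and 8.73 of Vegfc, and blood endothelial cells held 22.2 of Vegfc. Tgfb1, the gene floxed in one of the named genotypes, was found in lymphatic endothelial cells at 284 raw CPM over all libraries, against 263 in cells with at least 2 Ptprc UMIs. Its CPM was 126, 257 and 344 at day 0, 341, 322, 314 and 294 at day 7, 234, 277, 285 and 146 at day 21 and 390.4, 294, 281 and 339.9 in p7N3, and it was called in none of the comparisons. The members gave 7 UMIs of the checkpoint ligand gene Cd274, too few to compare.

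The first comparison asked how much of the tissue and of its endothelium the lymphatic cells made up over the time course. As a share of endothelial cells, meaning lymphatic cells plus 2705 blood endothelial cells (Pecam1 and Cdh5 present, no UMI of Prox1, Mmrn1, Reln or Lyve1, the same limits on Ptprc and Pdgfra), they made up 2.73% ± 1.57 (SD, n = 4) at day 0, 12.0% ± 5.15 (n = 3) at day 3, 15.2% ± 4.54 (n = 4) at day 7, 8.34% ± 1.24 (n = 4) at day 21 and 12.8% ± 2.18 (n = 4) in p7N3. Every library after injury lay above every day 0 library, since day 0 ranged from 0.435% to 4.0% and the lowest later library was at 6.49%. Day 21 (6.49% to 9.18%) lay below day 7 (10.6% to 20.6%) without overlap. These 4 differences each reached p = 0.0286 in a two-sided exact permutation test over libraries, the smallest p the design allows, and 0.0714 after Benjamini-Hochberg adjustment over the 10 tests of shares, so none passed the threshold of 0.05.

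As a share of all kept cells there was no such rise. Lymphatic endothelial cells made up 0.753% ± 0.472 (SD, n = 4) of kept cells at day 0, 0.179% ± 0.103 (n = 3) at day 3, 0.751% ± 0.231 (n = 4) at day 7, 1.17% ± 0.234 (n = 4) at day 21 and 0.666% ± 0.0744 (n = 4) in p7N3. In two-sided exact permutation tests the p was 0.143 for day 3, 1 for day 7 and 0.171 for day 21 against day 0, and 0.0571 for day 21 against day 7. Blood endothelial cells numbered 886 at day 0 and 573 at day 7, in 3561 and 13414 kept cells. The gate needs 3 of 6 genes to be seen, so deeper cells pass more easily, and shares were also taken after each cell was thinned to 1500 UMIs. They were then 1.61% of endothelial cells at day 0, 7.41% at day 3, 5.71% at day 7, 5.11% at day 21 and 4.90% in p7N3, with 298 shallower cells left out at day 0 and none elsewhere. Day 7 and day 21 then lay above day 0 by 4.10 and 3.50 percentage points (exact permutation p = 0.0286 for both), while day 21 differed from day 7 by -0.602 (p = 0.743) and day 3 from day 0 by 5.80 (p = 0.200). As a share of kept cells the thinned values were 0.316% at day 0, 0.159% at day 7 and 0.442% at day 21, with day 7 minus day 0 at -0.158 percentage points (exact permutation p = 0.257).

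**Figure D1:**
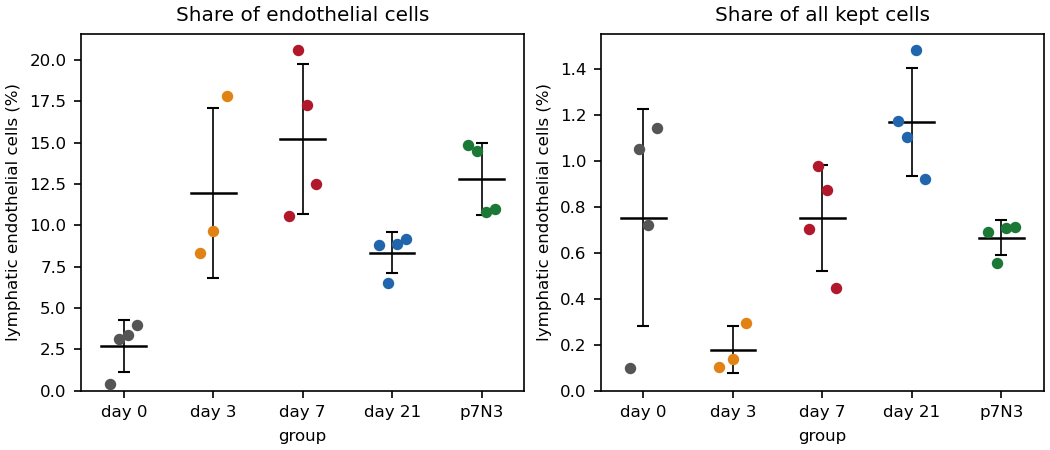
Lymphatic endothelial cells as a percent of endothelial cells (left) and of all kept cells (right), by group. Each point is a library, and the bars give the mean and SD. On the left every later library lies above the day 0 libraries, which reach 4.0%, and on the right day 3 has the lowest mean, with libraries at 0.102% to 0.296%, while 1 day 0 library lies at 0.0997%.

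The next comparison set the members against blood endothelial cells of the same libraries, paired by library over 16 libraries. Of 7020 genes tested, 2469 (35.2%) were called, 1093 (15.6%) higher in the lymphatic cells and 1376 (19.6%) lower. The balance turned with DESeq2 (1286 higher and 1229 lower). It also turned with no Ptprc and no Pdgfra UMI (53.9% of calls higher in place of 44.3%) and with libraries of at least 10 cells (51.6%). Both of these settings also took out the day 3 sum, and the minimum of 10 cells took out day 0 replicates 2 and 3 as well. Without the day 3 sum alone 48.0% of calls were higher, and the part of each step was not tested. Of the list of lymphatic identity genes, 22 of the 27 tested were higher and 1 lower (median log2 difference 2.76, against -0.03 over all genes tested). All 20 tested genes of the blood vascular list were lower (median -4.66). The blood class was itself gated on lacking lymphatic genes, so these counts describe how well the gates separate and are not a finding.

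Ccl21a held 20323 ± 11301 CPM (SD, n = 16) in lymphatic and 7.55 ± 6.0 in blood endothelial cells, a log2 difference of 11.39 ± 0.21 (adjusted p = 3.91e-22) by edgeR's quasi-likelihood test. The lowest lymphatic library, at 3957 CPM, lay far above the highest blood library, at 24.9. The largest other differences were named only among genes higher in 16 of 16 libraries, so that count is a condition and not a result. They were Dtx1 (8.76 ± 0.26), a regulator of Notch, and the transporter gene Slc45a3 (8.69 ± 0.22). Sh3gl3 (8.65 ± 0.23), an endophilin of vesicle uptake, and the polarity gene Pard6g (7.35 ± 0.15) followed. Pard6g held 444 ± 194 against 2.47 ± 1.33 CPM.

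Genes of leukocyte traffic were among those higher in the lymphatic class. The scavenging chemokine receptor Ackr2 (7.26 ± 0.29), the T cell survival factor Il7 (5.86 ± 0.28) and the leukocyte-binding scavenger receptor Stab1 (2.76 ± 0.10) exceeded their blood levels in 16 of 16 libraries, and 8 of 19 tested genes of that list were higher and 6 lower. Of 23 tested pan-endothelial and junction genes 4 were higher and 13 lower, beside 15.6% higher and 19.6% lower over all genes tested. The count of 4 higher is near that share. The junction gene Cldn5 was higher (1.96 ± 0.08), while the junction genes Esam (-3.87 ± 0.20) and Jam2 (-5.81 ± 0.29) were lower. On the blood side lay the water and glycerol channel Aqp7 (-6.62 ± 0.34), the semaphorin Sema3g (-6.23 ± 0.29), the transcription factor genes Tcf15 (-6.07 ± 0.25) and Mecom (-5.93 ± 0.33), Ccdc85a (-5.99 ± 0.39) and the VEGF receptors Flt1 (-5.23 ± 0.31) and Nrp1 (-5.57 ± 0.27). All 7 were lower in the lymphatic class in 16 of 16 libraries. For the first 5, named as the largest falls, this was a condition of the naming and not a result.

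Broader groups differed as well. Of 18 tested genes of lipid handling and caveolae, 15 were lower in lymphatic cells and none higher, among them Scarb1 (-4.14 ± 0.21), Cd36 (-5.14 ± 0.28) and Cav1 (-1.60 ± 0.09). Interferon response genes were lower in 13 of 20 and higher in 1, for example Oasl2 (-4.57 ± 0.31), and antigen presentation genes were lower in 9 of 16 and higher in 2, with H2-D1 at -0.89 ± 0.07. Of 21 tested proliferation genes 12 were higher and none lower, although by a small amount (median 0.53, Top2a 1.3 ± 0.29). The groups were unlike in this. The mean summed level of that list was 6180 raw CPM in lymphatic and 3540 in blood endothelial cells at day 7, and 5469 and 3697 in p7N3. It was 1970 and 1710 at day 0, 2290 and 2201 at day 21, and 4930 and 5099 in the 1 library at day 3. Erythrocyte genes moved with the class too, with all 4 tested lower in the lymphatic sums. All 5 tested mural genes were lower as well (median -2.34), among them Rgs5 (-5.22 ± 0.22), and 4 of 8 macrophage and monocyte genes were lower and none higher. Of 11 stromal genes 4 were lower and 2 higher, the latter near the 15.6% higher over all genes tested (19.6% lower). The part of attached or free RNA of these cells was not tested.

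At day 7 the lymphatic endothelial cells differed widely from those at day 0. Of 6340 genes tested, 1366 (21.5%) were called, 727 (11.5%) higher and 639 (10.1%) lower. Without day 0 replicate 4, the deepest of the 3 day 0 sums, 788 genes were called. The balance turned with DESeq2 (475 higher and 619 lower) and with RLE size factors (46.2% of calls higher in place of 53.2%). Proliferation genes were higher in 15 of 21 tested and lower in none (median log2 fold change 2.70, against 0.09 over all genes tested). Immediate early and heat shock genes were lower in 19 of 25 and higher in none (median -2.25). Lymphatic identity genes were lower in 13 of 31 and higher in 1 (median -0.82).

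Several cell division genes had no UMI in the day 0 sums. Mki67, which marks cycling cells, had 0, 0 and 0 CPM at day 0, 47.2, 84.7, 84.1 and 21.0 at day 7, 8.09, 5.89, 0 and 18.9 at day 21 and 27.4, 19.9, 23.4 and 70.5 in p7N3. At least 1 UMI of it was found in 0 of 25 members at day 0, which allows a share of up to 12.0% of cells with a UMI and sets no limit on cells that express the gene at the lower day 0 depth. The share was 20% of 10 at day 3, 30.1% of 103 at day 7, 6.67% of 60 at day 21 and 22.7% of 75 in p7N3. Blood endothelial cells held it in 0.339% at day 0 and 10.3% at day 7, at medians of 3860.0 and 9768 UMIs. Birc5, a survival and cytokinesis gene, had 0 CPM in all 3 day 0 sums and 202, 316, 267 and 28.0 at day 7. All 4 day 7 sums lay above day 0 for both genes, with replicate 4 lowest in each. Against the 11.7 CPM that 3 UMIs over the day 0 sums make, the mean at day 7 was at least 5.08-fold higher for Mki67, 17.4-fold for Birc5, 16.8-fold for the ubiquitin-conjugating gene Ube2c and 10.1-fold for the mitotic kinase Cdk1 (adjusted p = 0.00488, 8.08e-04, 0.00241 and 8.48e-04). The tubulin gene Tubb5 rose by 1.40 ± 0.23 (adjusted p = 1.53e-04), and Stmn1, which controls microtubules, by 2.12 ± 0.36 (adjusted p = 1.89e-04). A sum cannot tell apart more cells with a transcript and more transcript per cell.

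The calcium-binding protein gene S100a4 was not found in the day 0 sums, while the 1 member of day 0 replicate 1, which is in no sum, held 1 UMI of it. It had 0, 0 and 0 CPM at day 0, 537, 386, 368 and 413 at day 7, 388, 566, 777 and 665 at day 21 and 538, 469, 299.6 and 356 in p7N3. All later sums held it, the lowest with 299.6 CPM (p7N3 replicate 3), and no cell of the day 0 sums held a UMI. The mean was at least 36.5-fold higher at day 7 (adjusted p = 3.39e-07) and at least 51.3-fold higher at day 21 (adjusted p = 2.59e-07). In all other kept cells of the same libraries S100a4 held 287 raw CPM at day 0 and 544 at day 7. Blood endothelial cells held 15.6 ± 2.86 CPM at day 0 and 147 ± 26.8 at day 7. The matrix glycoprotein gene Tnc was likewise at 0 CPM in the day 0 sums and at 43.9, 289.7, 179 and 105 CPM at day 7, at least 13.2-fold higher (adjusted p = 6.67e-04), while the other cells held 15.1 raw CPM at day 0 and 483 at day 7.

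The acute response genes ran the other way. Fos, the immediate early transcription factor gene, had 6451, 3688 and 3412 CPM at day 0, 378, 606, 981 and 623 at day 7, 1989, 1244, 1494 and 491 at day 21 and 572, 1909, 618 and 1039 in p7N3. All day 0 sums lay above all others, and 3 of the 4 day 21 sums lay between day 0 and day 7. The small heat shock protein gene Hspb1 had 1211, 1105 and 799 CPM at day 0, 23.6, 72.8, 57.9 and 14 at day 7 and 263, 189, 305 and 269 at day 21. These 3 groups did not overlap. By edgeR's quasi-likelihood test Hspb1 fell by 4.35 on the log2 scale from day 0 to day 7 (adjusted p = 5.11e-09), Fos changed by -2.78 ± 0.40 (adjusted p = 3.26e-05), the mRNA decay factor gene Zfp36 by -4.03 ± 0.37 (adjusted p = 1.86e-07), the AP-1 subunit gene Junb by -2.85 ± 0.32 (adjusted p = 2.04e-06), and the stress gene Ier3 by -3.07 ± 0.35 (adjusted p = 2.31e-06).

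Among the genes of lymphatic identity, Clca3a1, a lymphatic surface marker, had 687, 501 and 301 CPM at day 0, 67.5, 83.2, 118 and 105 at day 7 and 271, 206, 325 and 165 at day 21. The day 7 sums all lay below those of day 0 and day 21, and day 21 overlapped day 0. Gata2, a transcription factor of lymphatic valves, fell from 289, 141 and 120.3 CPM to 10.1, 35.7, 31.8 and 49.0 (-2.45 ± 0.45, adjusted p = 4.76e-04). Clca3a1 changed by -2.35 ± 0.30 (adjusted p = 9.99e-06) and the copper-binding ferroxidase gene Cp by -2.10 ± 0.35 (adjusted p = 1.60e-04). Of the gate genes, Prox1 was in 80% of members at day 0 and 93.2% at day 7. The valve genes Foxc2, Gata2 and Cldn11 were in 48.0%, 48.0% and 40.0% of members at day 0 and in 30.1%, 30.1% and 17.5% at day 7, where cells held more UMIs. In blood endothelial cells Foxc2 was in 0.339% and 2.97% and Cldn11 in 0.113% and 0.698%, while Gata2, which both classes use, was in 41.5% and 32.6%. The 1 lymphatic identity gene that rose was Ptx3, a secreted pattern-recognition protein gene, with 0, 12.9 and 34.4 CPM at day 0, 466, 260.0, 501 and 371 at day 7 and 80.8, 58.9, 59.5 and 75.5 at day 21 (4.30 ± 0.56, adjusted p = 1.25e-05). Day 7 lay above both other groups in all 4 sums.

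Signalling genes of vessel growth were more often lower than higher. Of 20 tested VEGF and vessel growth genes, 9 were lower and 1 higher, and of 17 TGF-beta and BMP genes 9 were lower and none higher, with medians of -1.0 and -0.90. Among the lower genes were Hes1 (-2.61 ± 0.28), a Notch target, the Notch ligand gene Dll4 (-2.27 ± 0.39), the receptor gene Notch1 (-1.26 ± 0.27) and Efnb2 (-2.28 ± 0.36), an ephrin of growing lymphatic vessels. Notch1 was not called without day 0 replicate 4 (-0.98, adjusted p = 0.0535). The TGF-beta co-receptor gene Tgfbr3 had 253, 257 and 215 CPM at day 0 and 54.0, 29.7, 39.2 and 42.0 at day 7, with no overlap (-2.59 ± 0.27, adjusted p = 1.27e-06). Ltbp4, which stores latent TGF-beta in the matrix, changed by -1.96 ± 0.24 (adjusted p = 5.79e-06), the BMP receptor gene Acvrl1 by -1.70 ± 0.38 (adjusted p = 0.00245) and the ligand gene Bmp4 by -2.58 ± 0.64 (adjusted p = 0.00578). Flt4 itself belongs to the gate and was seen in 88.0% of members at day 0 and 92.2% at day 7.

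More matrix and glycolysis genes were higher than lower. In the list of extracellular matrix and basement membrane genes 13 of 32 were higher and 2 lower (median 0.53), and in that of hypoxia and glycolysis 8 of 23 were higher and 2 lower (median 0.98). The membrane-bound collagenase gene Mmp14 had 54.2, 25.7 and 77.4 CPM at day 0, 398, 281, 312 and 455 at day 7 and 174, 124, 190.3 and 189 at day 21. Its groups did not overlap, and day 7 was the highest (2.66 ± 0.34, adjusted p = 9.99e-06). The basement membrane collagen gene Col4a1 changed by 2.17 ± 0.34 (adjusted p = 8.32e-05), and the metalloprotease inhibitor genes moved apart, with Timp1 at 3.50 ± 0.52 (adjusted p = 5.25e-05) and Timp3 at -2.17 ± 0.27 (adjusted p = 8.23e-06). Timp1 had 3 UMIs at day 0 and was 11.9-fold higher at day 7 in pooled raw CPM (95% counting interval 4.04 to 58.3). The glycolytic gene Gapdh had 181, 411 and 413 CPM at day 0 and 1171, 1769.6, 1319 and 938 at day 7 (1.91 ± 0.26, adjusted p = 1.86e-05), and Ldha, which makes lactate, changed by 1.46 ± 0.23 (adjusted p = 1.16e-04). All 4 day 7 sums lay above day 0 for Gapdh.

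Lists of the interface with leukocytes and blood held calls in both directions, beside 11.5% higher and 10.1% lower over all genes tested. Of 21 tested leukocyte trafficking genes 2 were higher and 5 lower. The count of 2 higher, and the interferon counts below, do not exceed the share over all genes. The scavenging receptor gene Ackr3, which clears Cxcl12 and adrenomedullin, had 361, 206 and 378 CPM at day 0, 84.4, 114, 93.4 and 189 at day 7 and 408, 200.4, 277 and 363 at day 21 (-1.49 ± 0.30, adjusted p = 0.00112 for day 7 against day 0). All day 7 sums lay below all day 0 and day 21 sums. The adhesion gene Icam1 changed by -2.91 ± 0.53 (adjusted p = 4.11e-04), Spns2, which exports sphingosine-1-phosphate for lymphocyte exit, by -1.22 ± 0.24 (adjusted p = 9.38e-04), and Clec2d, a ligand gene of an inhibitory natural killer receptor, by -2.40 ± 0.36 (adjusted p = 4.95e-05). Antigen presentation genes were higher in 3 of 13 and lower in 1, and interferon response genes higher in 1 and lower in 1 of 16. Coagulation genes were lower in 6 of 16 and higher in 3, with the anticoagulant receptor gene Thbd at -2.73 ± 0.34 (adjusted p = 8.23e-06) and Vwf, more abundant in blood vessels, at -5.63 ± 1.12 (adjusted p = 9.98e-04). Vwf rests on 1 UMI at day 7, 87.9-fold lower in pooled raw CPM (95% counting interval 13.2 to 3735). Lipid genes were lower in 7 of 16 and higher in 1, among them Gpihbp1, the capillary anchor of lipoprotein lipase, at -3.68 ± 0.46 (adjusted p = 7.57e-06).

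Other genes with large falls were Fmo2 (-6.69 ± 0.85, adjusted p = 9.58e-06), a monooxygenase, the kinase subunit gene Prkar1b (-5.93 ± 1.10), and the ephrin receptor gene Epha4, which had 0 CPM in all 4 day 7 sums and was at least 32.2-fold lower than at day 0. Fmo2 and Prkar1b rest on 1 UMI each at day 7, 203-fold (95% counting interval 33.7 to 8274) and 115-fold (18.0 to 4803) lower in pooled raw CPM.

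Markers of other cells moved with the day 7 comparison. Over all genes tested 11.5% were higher and 10.1% lower. Macrophage and monocyte genes were higher in 2 of 11 tested, a count near that share. Their summed level was 147 ± 121 raw CPM at day 0 (12 of 15 genes with a UMI, Fcgr3, Cd14 and Ms4a7 at 0) and 582 ± 227 at day 7 (15 of 15), led by Lyz2 at both times. In the rest of the libraries the same sum was 3248 at day 0 and 11167 at day 7. Stromal genes were higher in 5 of 11 and lower in 2, with 1080 ± 319 raw CPM at day 0 (Prrx1, Fbln1 and Pdgfrb at 0, Gsn most abundant) and 2125 ± 1031 at day 7 (Col1a1 most abundant), against 33743 and 41260 in the rest. Neutrophil genes summed to 6.37 raw CPM at day 0, from S100a8 alone, and to 74.8 at day 7. Erythrocyte genes fell in 3 of 5, from 706 to 210 raw CPM, while in blood endothelial cells they went from 18807 to 4469. Blood vascular genes summed to 3347 raw CPM in lymphatic cells at day 0 and 1337 at day 7, against 42237 and 16933 in blood endothelial cells. Lymphocyte genes summed to 35.1 raw CPM at day 0 and 7.85 at day 7, platelet genes to 62.0 and 80.5, and mural genes to 175 and 109. The part of these other cells in the day 7 result was not tested.

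**Figure D2:**
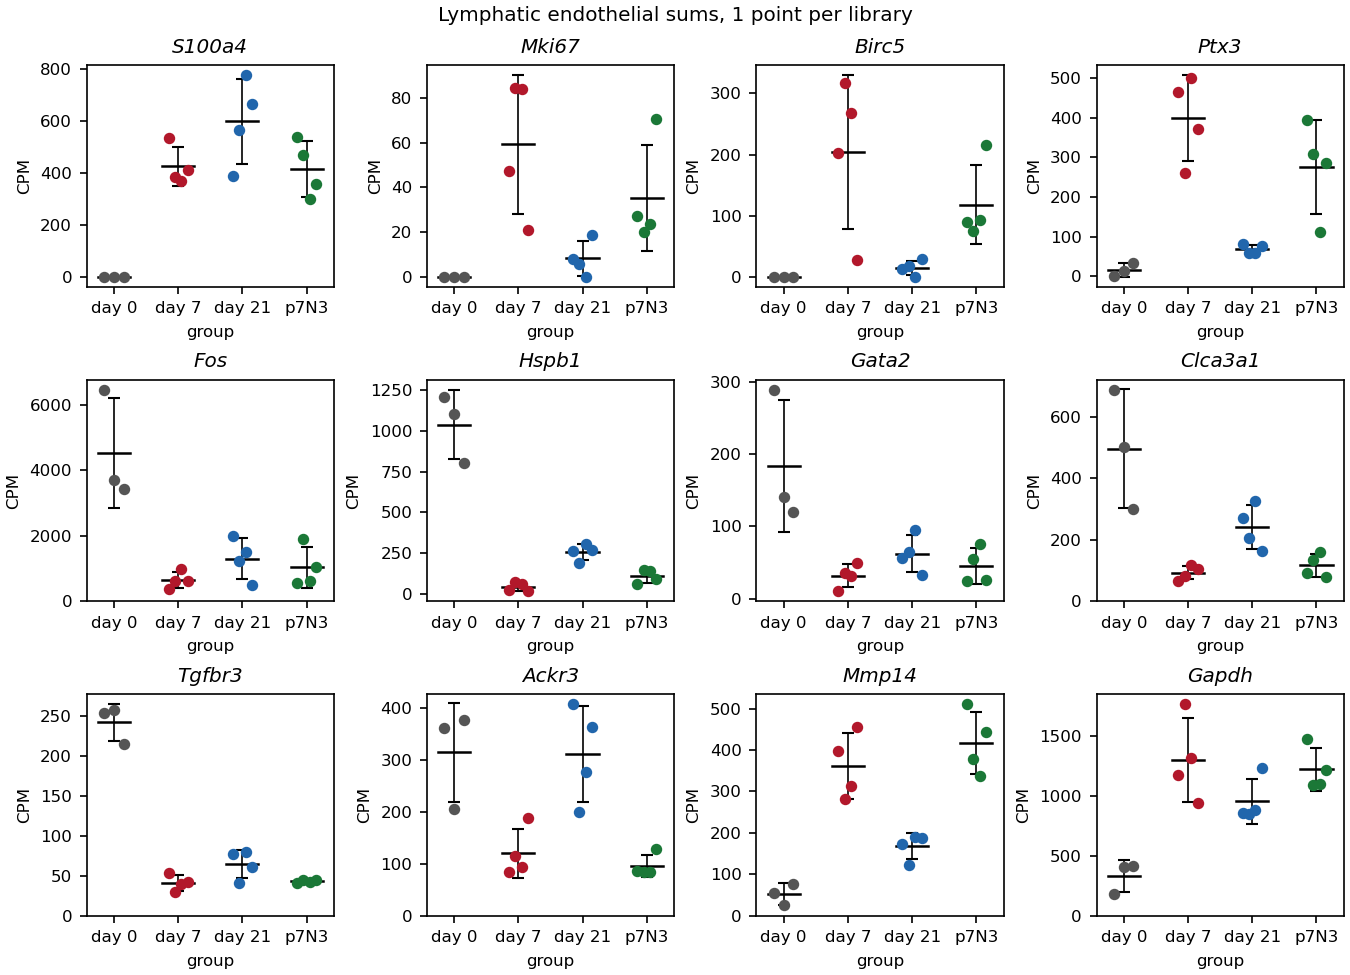
CPM (TMM-scaled) of 12 genes in the lymphatic endothelial sum of each library, by group. Points are libraries and the bars give the mean and SD. S100a4, Mki67 and Birc5 are at 0 in the 3 day 0 sums, Fos and Hspb1 are highest there, and Ackr3 and Clca3a1 are lower at day 7 than at day 0 and day 21.

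From day 7 to day 21 cell division genes were lower again and lymphatic identity genes higher. Of the 6340 genes, 613 (9.67%) were called, 334 (5.27%) higher and 279 (4.4%) lower. Both comparisons share the day 7 libraries, so their opposite directions are not independent, and the values are given side by side. Without day 7 replicate 2, day 7 replicate 3 or day 21 replicate 1 the calls were 355, 367 and 361. Proliferation genes were lower in 14 of 21 and higher in none (median -1.64). Cdk1 was at 128, 181, 114 and 49.0 CPM at day 7 and 12.1, 0, 0 and 9.43 at day 21 (-4.38 ± 0.60, adjusted p = 1.20e-04), and the spindle genes Prc1 (-4.43 ± 0.69), Spc24 (-5.19 ± 0.70) and Spc25 (-5.04 ± 0.83) were the other large falls. Those 3 rest on 3, 1 and 1 UMIs at day 21, and in pooled raw CPM they were 27.0-fold (95% counting interval 9.08 to 133), 54.6-fold (9.58 to 2178) and 49.7-fold lower (8.71 to 1986). Lymphatic identity genes were higher in 11 of 31 and lower in 1 (median 0.44). The acute-phase gene Lbp, which binds bacterial lipopolysaccharide, had 317, 299, 303 and 749 CPM at day 7 and 1601, 990.2, 1054 and 1019 at day 21 (1.55 ± 0.28, adjusted p = 0.00115). Its groups did not overlap.

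Clca3a1 rose by 1.39 ± 0.27 (adjusted p = 0.00177), the tetraspanin gene Cd9 by 0.84 ± 0.16 (adjusted p = 0.00182), Ackr3 by 1.48 ± 0.25 (adjusted p = 5.58e-04) and Spns2 by 1.09 ± 0.20 (adjusted p = 0.00108), while Ptx3 changed by -2.52 ± 0.31 (adjusted p = 5.03e-05). Leukocyte trafficking genes were higher in 6 of 21, coagulation genes in 6 of 16 and lipid genes in 5 of 16, with none lower in these lists. Immediate early and heat shock genes were higher in 9 of 25 and lower in none, with Hspb1 at 2.36 ± 0.30 (adjusted p = 6.52e-05). Antigen presentation and interferon genes were lower in 3 of 13 and 3 of 16, among them the class II gene H2-Aa (-2.27 ± 0.55, adjusted p = 0.00993) and Cd74, its chaperone (-2.23 ± 0.45). Macrophage genes were lower in 4 of 11 in the same comparison, with a sum of 187 raw CPM at day 21. Blood vascular genes were higher in 7 of 17 and lower in none, such as Ly6c1 (3.70 ± 0.80) and the water channel gene Aqp1 (2.99 ± 0.57), and their sum was 2534 ± 1288 raw CPM against 1337 ± 236 at day 7. H2-Aa was not called without day 7 replicate 2 (-1.82, adjusted p = 0.0672), nor Ly6c1 without day 21 replicate 4 (2.37, adjusted p = 0.0501). The part of macrophages and of blood endothelial RNA in these counts was not tested.

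Between day 21 and day 0, 202 genes (3.19%) were called, 98 (1.55%) higher and 104 (1.64%) lower. The count was 104, 97, 83 and 101 without day 0 replicate 2, 3 or 4 or day 21 replicate 4, and with RLE size factors 32.7% of the calls were higher in place of 48.5%. Immediate early and heat shock genes were lower in 12 of 25 and higher in none (median -1.47), and matrix genes were higher in 8 of 32 and lower in none (median 0.63). Proliferation genes gave no call in 21 (median 1.53). The gelatinase gene Mmp2 had 0, 0 and 8.60 CPM at day 0 and 48.5, 136, 99.1 and 203 at day 21 (4.73 ± 1.08, adjusted p = 0.0158). Lgals3, a galectin, had 0, 12.9 and 0 and 40.4, 141, 63.4 and 203 CPM (4.59 ± 1.25, adjusted p = 0.0426). Neither gene overlapped between the groups, which the naming rule sets as a condition for the largest changes. They had 1 UMI each at day 0 and were 28.2-fold (95% counting interval 4.95 to 1124) and 25.4-fold (4.46 to 1016) higher in pooled raw CPM. Without day 0 replicate 2, 3 or 4, neither gene was called, nor was Lgals3 without day 21 replicate 2 or 4 (adjusted p = 0.0607 to 0.218). In these fits the log2 fold change was 4.23 to 7.91 for Mmp2 and 3.76 to 7.79 for Lgals3. Stromal genes moved with this comparison, with 2 of 11 tested higher and a sum of 2928 ± 995 raw CPM at day 21, led by Col1a1, against 1080 ± 319 at day 0, and their part was not tested. In the rest of the libraries Mmp2 held 359 and 1373 raw CPM and Lgals3 133 and 642.

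The receptor gene Kdr (VEGFR-2) changed by -1.03 ± 0.22 (adjusted p = 0.0117), the lymphatic factor Maf by -1.0 ± 0.28 (adjusted p = 0.0484), the only lymphatic identity gene called, and Hes1 by -1.92 ± 0.28 (adjusted p = 3.28e-04). The immunoregulatory surface gene Cd200 was higher at 1.62 ± 0.38 (adjusted p = 0.0174). The genes with the largest falls were the nuclear receptor gene Nr4a2 (-3.10 ± 0.66), the polymerase subunit gene Polg2 (-3.52 ± 0.89), Ppp1r14a (-3.01 ± 0.76), an inhibitor of myosin phosphatase, and the butyrophilin-like gene Btnl9 (-2.80 ± 0.48). Many of these calls were lost when any 1 of several libraries was left out, with fold changes close to those given: -0.95 to -0.91 in the lost calls of Kdr, -3.03 to -2.71 of Nr4a2, 1.3 to 1.57 of Cd200, -1.04 to -0.79 of Maf, -3.55 to -3.20 of Polg2 and -2.95 to -2.57 of Ppp1r14a. Kdr and Nr4a2 were not called without day 0 replicate 3 or 4 (adjusted p = 0.0623 to 0.0878), Cd200 without day 0 replicate 2 or 3 or day 21 replicate 4 (0.0542 to 0.0797), Maf without day 0 replicate 3 or 4 or day 21 replicate 2, 3 or 4 (0.0634 to 0.250), Polg2 without day 0 replicate 2 or 4 or day 21 replicate 2, 3 or 4 (0.0576 to 0.125), and Ppp1r14a without day 0 replicate 3 or 4 or day 21 replicate 3 or 4 (0.0613 to 0.152).

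Day 3 can only be described. Its 1 sum, of 5 cells, held 931 CPM of S100a4, 40.9 of Birc5, 358 of Hspb1, 1964 of Fos, 61.4 of Clca3a1 and 30.7 of Ptx3. It was compared with no other group, and its erythrocyte genes stood at the 58843 raw CPM given above.

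**Figure D3:**
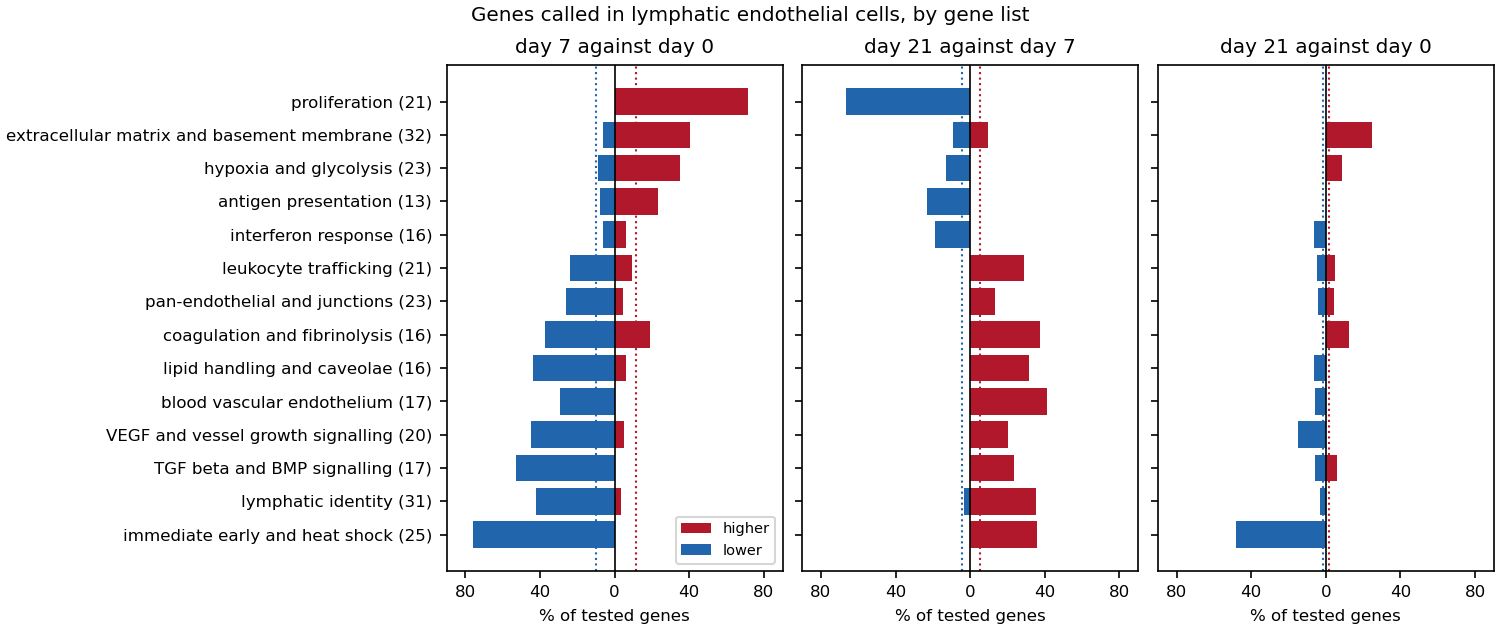
Percent of the tested genes of each list called higher (right of 0) or lower (left of 0) in lymphatic endothelial cells, for 3 comparisons of days. Dotted lines give the same over all genes tested, and the number of tested genes is in brackets. Proliferation genes are higher in 15 of 21 at day 7 and lower in 14 of 21 from day 7 to day 21.

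Whether these changes differed from those of blood endothelial cells in the same libraries was tested as an interaction over 10937 genes. For day 7 against day 0 the change differed for 592 genes (5.41%), and the lymphatic change lay above the blood change for 248 (2.27%) and below it for 344 (3.15%). Without day 0 replicate 3 or 4 the count was 386 and 311, and without the highest doublet scores 382. The doublet setting also took out the sums of day 0 replicate 2, left with 4 members, and of day 3 replicate 3, left with 3. Of immediate early and heat shock genes, 18 of 26 tested were lower in this difference and 1 higher. Fos changed by -2.78 ± 0.40 (log2) in lymphatic and -0.15 ± 0.22 in blood endothelial cells, a difference of -2.55 ± 0.38 (adjusted p = 2.34e-05) by edgeR's quasi-likelihood test, and Junb differed by -2.75 ± 0.32 (adjusted p = 3.50e-07), Zfp36 by -3.38 ± 0.38 (adjusted p = 2.11e-07) and Ier3 by -4.03 ± 0.38 (adjusted p = 5.57e-09).

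Several genes went in opposite directions. Cd200 changed by 1.22 ± 0.38 in lymphatic and -1.63 ± 0.16 in blood endothelial cells, and Icam1 by -2.91 ± 0.53 and 1.42 ± 0.27, with differences of 2.92 ± 0.34 (adjusted p = 4.08e-07) and -4.26 ± 0.50 (adjusted p = 4.08e-07). The rise of Cd200 in lymphatic cells alone was not called without day 0 replicate 2 or 3 or day 7 replicate 1 (0.88 to 1.16, adjusted p = 0.0554 to 0.113). Clca3a1 changed by -2.35 ± 0.30 in lymphatic cells and 4.49 ± 0.56 in blood endothelial cells, where it rose from 0.703 ± 1.22 to 15.9 ± 3.57 CPM (-6.72 ± 0.62, adjusted p = 4.85e-09). Plvap, which forms the diaphragms of fenestrated vessels, did not change by a called amount in lymphatic cells, where its direction turned without day 0 replicate 4 (-0.03). It changed by 0.15 ± 0.21 and 3.08 ± 0.30 (-2.91 ± 0.25, adjusted p = 9.30e-10), with 217 ± 34.2 CPM at day 0 and 1833 ± 196 at day 7 in blood endothelial cells.

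Receptors of TGF-beta were also split. Tgfbr2 differed by -1.83 ± 0.28 (adjusted p = 2.94e-05), Tgfbr3 by -2.74 ± 0.32 (adjusted p = 4.08e-07) and the TGF-beta-induced matrix gene Tgfbi by -3.49 ± 0.45 (adjusted p = 2.58e-06), all lower in the lymphatic direction. In that list 6 of 22 differed this way and 1 the other way, and of 33 tested lymphatic identity genes 13 did and none the other way. Maf changed by -1.28 ± 0.28 in lymphatic and 2.20 ± 0.50 in blood endothelial cells. Of the coagulation genes 7 of 18 differed in the lower direction and none in the higher, for example Procr, the protein C receptor gene (-2.41 ± 0.38, adjusted p = 4.54e-05). B2m, the light chain of class I molecules, moved the other way (0.87 ± 0.24 in lymphatic, -0.60 ± 0.13 in blood), as did the endothelial gene Egfl7 (1.06 ± 0.19, adjusted p = 3.95e-04). The rise of B2m in lymphatic cells alone was not called without day 0 replicate 2 or 4 (0.65 to 0.79, adjusted p = 0.0750 to 0.0837). Of 32 tested matrix and basement membrane genes 6 differed in the higher and 3 in the lower direction (median -0.13). The collagen gene Col18a1 changed by 1.43 ± 0.25 in lymphatic and 5.40 ± 0.34 in blood endothelial cells, and Col4a1 by 2.17 ± 0.34 and 0.74 ± 0.11. Skeletal muscle genes were 4 of 9 in the higher direction, and their sum fell from 130 to 51.9 raw CPM in lymphatic cells and from 2151 to 82.2 in blood endothelial cells. The latter day 0 mean rests on replicate 4, with 5986 raw CPM against 204 and 262 in replicates 2 and 3. Its part was not tested.

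For day 21 against day 0 the change differed for 193 genes (1.76%), 50 (0.457%) higher and 143 (1.31%) lower in the lymphatic direction. It was 100, 116 and 109 without day 0 replicate 2, 3 or 4. With RLE size factors the median difference over all genes moved from 0.13 to 0.015, and 15.3% in place of 25.9% of the calls were higher. Immediate early and heat shock genes made up 16 of the lower ones, of 26 tested, and none of the higher ones, with Fos at -2.55 ± 0.38 (adjusted p = 4.45e-05) and Zfp36 at -3.40 ± 0.36 (adjusted p = 1.86e-07). Clca3a1 differed by -4.53 ± 0.71 (adjusted p = 1.17e-04) and Icam1 by -3.62 ± 0.48 (adjusted p = 8.41e-06). The comparisons of day 7 and day 21 share the day 0 libraries.

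**Figure D4:**
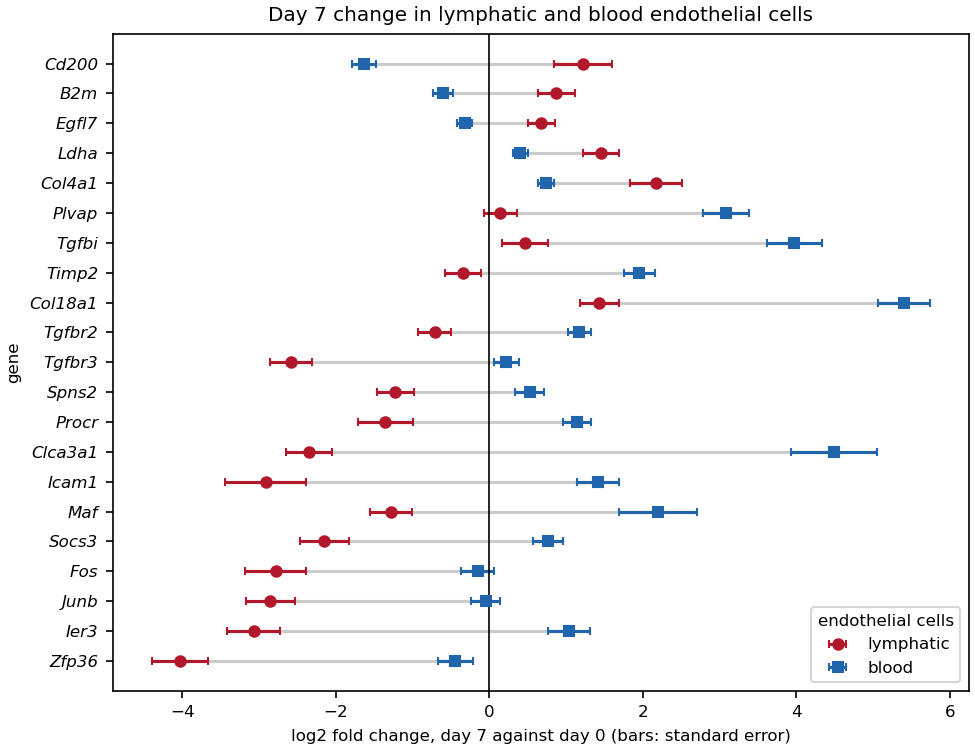
Log2 fold change from day 0 to day 7 of 21 genes in lymphatic (circles) and blood (squares) endothelial cells, with standard errors from the fit of each class. Fos is at -2.78 in lymphatic and -0.15 in blood endothelial cells, and Cd200, Icam1 and Clca3a1 lie on opposite sides of 0.

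The last comparison addressed the CD47-activating peptide, p7N3 against day 7. None of the 6340 genes was called in lymphatic endothelial cells by edgeR (0% of tested, with 266 at an unadjusted p under 0.05, and 0 by DESeq2), and the share of endothelial cells did not separate the groups (12.8% ± 2.18 against 15.2% ± 4.54, exact permutation p = 0.371). The count was 1 without p7N3 replicate 4, 14 with replicates 1 to 3 alone and 49 of 15070 genes without a filter on low counts. Mki67 was at 27.4, 19.9, 23.4 and 70.5 CPM with the peptide and 47.2, 84.7, 84.1 and 21.0 without, and S100a4 at 538, 469, 299.6 and 356 and 537, 386, 368 and 413. These ranges overlapped. Ptx3 was at 394, 309, 112 and 285 CPM with the peptide (-0.52 ± 0.26, adjusted p = 1). A p that misses the threshold does not show that the groups were alike. The 17 tested blood vascular genes had a median of 1.27 and the 25 immediate early and heat shock genes one of 0.43, against 0.00 over all genes tested, with no gene called in either list. The blood vascular genes summed to 1171, 1369, 1599 and 2826 raw CPM with the peptide, replicate 4 being the highest, and to 1337 ± 236 without. In the interaction with blood endothelial cells 2 of 10937 genes (0.0183%) were called. Plac8 differed by 3.55 ± 0.65 (adjusted p = 0.0303) and the stromelysin gene Mmp3 by 6.22 ± 1.14 (adjusted p = 0.0303), both outside the naming rule and named because they were the only ones. The count was 0 without day 7 replicate 3 or 4 and with DESeq2, and 4 without day 7 replicate 2 or p7N3 replicate 4. Without day 7 replicate 3 the Mmp3 difference was 1.00. Macrophage genes summed to 929 ± 394 raw CPM with the peptide and 582 ± 227 without, stromal genes to 3911 ± 3030 and 2125 ± 1031, and neutrophil genes to 279 ± 171 and 74.8 ± 30.5. Their part was not tested.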

How the data were processed

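Single-cell 3' libraries of 19 samples were analysed. Per the labels, the authors used Cell Ranger and Seurat, and the deposited tables hold raw UMI counts of 27998 genes in each barcode. The labels name GRCh38 for most libraries and mm10 for the replicate 4 libraries, while the genes are mouse and the study's methods state mm10. A barcode counted as a cell from 500 detected genes upward and with mitochondrial UMIs at no more than 25%, which left 3019467 to 39870492 UMIs and a median of 3414 to 12406 UMIs per cell in each library. Groups were taken from the labels. The replicate 4 libraries carry other label fields, and the comparisons of groups within lymphatic cells, and of their shares, were also made without them. No doublet was removed in the results given, and the deposited matrices were not described as filtered for doublets.

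UMIs of the members, and of blood endothelial cells, were summed per library where a library had at least 5 members. Differences were tested with edgeR 4.0.16 in R 4.3.3 (TMM scaling, filterByExpr, quasi-likelihood F-test, Benjamini-Hochberg adjustment over all genes tested, threshold 0.05), with all groups in the fit. Lymphatic and blood endothelial sums were compared with library as a block, and differences of change as an interaction. Fold changes are given as log2 ± SE, and scripts were tested on simulated data. Shares were compared with exact permutation tests (scipy 1.17.1). Lower bounds of folds use 3 UMIs over the group's sums, upper limits of a share at 0 use 3 cells, and intervals are 95% exact (Clopper-Pearson). These cover counting error only.

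The members and the gene lists were chosen with earlier results of these data known. Genes were named by rule: for each comparison the 5 largest changes per direction among called genes with a mean of at least 50 CPM in the higher group and no overlap between groups, up to 4 genes per list with the smallest adjusted p, and Ccl21a, Vegfc, the gene of VEGF-D, Tgfb1, Mki67, Fos and Cd274. Not all genes that this rule allows are printed. Genes shown for their role in a described list, among them Cav1, Cldn5, Foxc2 and Mmp14, were also named, in part after their values were seen. DESeq2 1.42.0, RLE size factors, other filters, gates and doublet limits, a replicate block and leaving out each library were tried as alternatives.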

Additional observations from a re-analysis of the deposited data

Results flagged for a closer look

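Libraries that stood far from the other 3 of their group were looked for with Dixon's test in 263 groups of 4, over the genes named above and the shares, and 30 were found. Chance gives about 1 in 20 such groups. In 6 of the 30, those of Fmo2, Prkar1b, Vwf and, at day 21, Spc24 and Spc25, the value is 1 UMI beside 3 libraries at 0, where the test passes by construction and shows nothing. The other 257 groups gave 24. In p7N3, replicate 4 stood apart for the blood vascular and lipid genes Aqp1 (199 CPM) and Cd36 (119 CPM), the division genes Birc5 (215 CPM) and Mki67 (70.5 CPM), and for Ackr3 (128 CPM), Fmo2 (3.21 CPM) and Ppp1r14a (19.2 CPM). Replicate 2 of p7N3 stood apart for Cd200 (160 CPM), H2-Aa (135 CPM) and Ltbp4 (484 CPM), and for lymphatic endothelial cells as a share of kept cells (0.556%). At day 7, replicate 4 stood apart for Dll4 (28.0 CPM), Lbp (749 CPM) and Spc24 (35.0 CPM), replicate 1 for Fmo2 (3.38 CPM), replicate 2 for Prkar1b (1.49 CPM) and replicate 3 for Vwf (1.87 CPM).

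At day 21, replicate 1 stood apart for Cav1 (796 CPM), Lbp (1601 CPM), Spc24 and Spc25 (4.04 CPM each) and Zfp36 (441 CPM), and replicate 2 for B2m (666 CPM), Procr (141 CPM) and Rgs5 (53.0 CPM) and for its share of endothelial cells (6.49%). Day 21 replicate 4 stood apart for the blood vascular genes Flt1 (142 CPM), Ly6c1 (377 CPM) and Scarb1 (70.8 CPM) and for Gapdh (1236 CPM).

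Changes that differed between lymphatic and blood endothelial cells in the interaction test (log2 fold change in lymphatic minus that in blood, edgeR's quasi-likelihood test, adjusted p under the threshold) were, for day 7 against day 0, Clca3a1 (-6.72), Icam1 (-4.26), Ier3 (-4.03), Col18a1 (-3.92), Tgfbi (-3.49), Zfp36 (-3.38), Maf (-3.37), Plvap (-2.91), Junb (-2.75), Tgfbr3 (-2.74), Fos (-2.55), Procr (-2.41) and Tgfbr2 (-1.83) on the lower side. S100a4 (8.14), Cd200 (2.92), B2m (1.54), Col4a1 (1.52) and Egfl7 (1.06) lay on the higher side. The S100a4 difference has no UMI behind it in the lymphatic day 0 sums, so its size depends on the prior count. It was not called without day 0 replicate 2, 3 or 4, or day 7 replicate 1 or 4 (7.83 to 8.31, adjusted p = 0.0515 to 0.252).

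For day 21 against day 0 the named differences were Clca3a1 (-4.53), Icam1 (-3.62), Zfp36 (-3.40) and Fos (-2.55). For p7N3 against day 7 they were Mmp3 (6.22) and Plac8 (3.55). Mmp3 was not called without day 7 replicate 3 or 4 or p7N3 replicate 1, 3 or 4 (adjusted p = 0.0508 to 1), with a difference of 1.00 without day 7 replicate 3 and 5.68 to 6.23 without each of the others. Plac8 was not called without day 7 replicate 2, 3 or 4 or p7N3 replicate 4 (2.71 to 4.01, adjusted p = 0.0629 to 0.213).

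The day 3 sum of 5 cells, which was compared with no other group, held 58843 raw CPM of erythrocyte genes, 2397 of neutrophil genes, 2232 of macrophage and monocyte genes, 348 of platelet and megakaryocyte genes and 219.5 of mural genes, all above the day 0 means (175 for mural genes). In the members of the other day 3 libraries neutrophil genes reached 1522 and macrophage and monocyte genes 13320 raw CPM.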

How the results depend on the processing

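The day 0 group, with 3 sums of 6 to 10 cells, limits most of these results. Leaving out 1 library at a time gave 788 to 1367 calls for day 7 against day 0, 83 to 228 for day 21 against day 0, 355 to 616 for day 21 against day 7, 0 to 1 for p7N3 against day 7, 311 to 569, 100 to 193 and 0 to 4 for the differences of change (day 7 and day 21 against day 0, p7N3 against day 7), and 2243 to 2671 for lymphatic against blood endothelial cells. With at least 10 UMIs in every library, which left 692 genes, the calls were 352, 130 and 185 for day 7 and day 21 against day 0 and day 21 against day 7. Without a filter on low counts they were 333 for day 21 against day 0, 49 for p7N3 against day 7, 4078 for lymphatic against blood endothelial cells (32.2% higher in place of 44.3%) and 51 for the p7N3 difference of change. With replicates 1 to 3 alone they were 788, 54 and 14 for day 7 and day 21 against day 0 and p7N3 against day 7. Without the highest doublet scores they were 81 for day 21 against day 0, and 382 and 83 for the differences of change at day 7 and day 21. In every fit of sums, that setting also took out day 0 replicate 2, which was left with 4 members. It took out the only day 3 sum, replicate 3, as well, which was left with 3. For day 21 against day 0 it tested 4964 genes in place of 6340. Its counts and splits of calls thus reflect all of these steps. The setting with no Ptprc and no Pdgfra UMI left the day 3 sum with 4 members, so that sum was out there too. The p7N3 difference of change gave 0 calls with DESeq2 and with libraries of at least 10 cells, 4 with at least 4 of the 6 gate genes and 1 with no Ptprc and no Pdgfra UMI. The cause of these shifts was not tested, beyond the smaller number of genes or sums in some.

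For day 7 against day 0 the share of calls that were higher went from 53.2% to 43.4% with DESeq2, 46.2% with RLE size factors, 44.4% when only those groups were fitted, 45.8% with no Ptprc and no Pdgfra UMI and 43.9% without the highest doublet scores. The split of calls moved by over 10 percentage points for day 21 against day 0 when only those groups were fitted (30.2% higher), with replicates 1 to 3 (33.3%), with no Ptprc and no Pdgfra UMI (35.4%) and without the highest doublet scores (34.6%). For the differences of change it moved to 54.2% at day 7 and 36.7% at day 21 with at least 4 gate genes, to 12.0% at day 21 without the highest doublet scores and to 37.2% at day 21 without day 21 replicate 2, and for p7N3 from 100% of 2 calls to 78.4% without a filter on low counts and 75% without p7N3 replicate 4.

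As a share of kept cells, day 7 minus day 0 was 0.0785 percentage points with at least 4 gate genes, 0.228 with replicates 1 to 3, -0.158 after thinning and -0.220 to 0.127 with 1 library left out, and day 21 minus day 7 passed an unadjusted p of 0.05 after thinning (0.284) and with no Ptprc and no Pdgfra UMI (0.339). As a share of endothelial cells, the differences from day 0 were 9.65 at day 3, 13.9 at day 7 and 5.76 at day 21, and day 21 minus day 7 was -8.10, with replicates 1 to 3, where the smallest possible p is 0.1. Thinning gave 5.80 for day 3 minus day 0 and -0.602 for day 21 minus day 7, which was -5.58 without the highest doublet scores. With 1 library left out, day 3 minus day 0 ranged from 6.28 to 11 and day 21 minus day 7 from -8.45 to -5.13.

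Among named genes, Ccl21a at day 7 against day 0 turned to -0.21 without the highest doublet scores. That setting also took out the sums of day 0 replicate 2 and day 3 replicate 3. Plvap turned to -0.024 with only those groups and -0.16 with replicates 1 to 3, and ranged from -0.026 to 0.23 with 1 library left out. Of 2277 alternatives over 123 named genes and comparisons, 2189 kept the direction and the side of the threshold. The gate without Lyve1 was chosen after seeing the data.

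The replicate numbers were not shown to pair libraries. The correlation of deviations between same-numbered libraries was -0.111 to 0.111 over 21 pairs, and 5 of 15 libraries correlated best with a library of their own number. With the replicate block, 1207, 179, 560 and 2 genes were called for day 7 and day 21 against day 0, day 21 against day 7 and p7N3 against day 7. Libraries with at least 10 cells gave no value for the comparisons with day 0, where 1 sum was left.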
